A study of Homo sapiens with 8 samples.

Results

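The E2F and RB family was followed as 10 genes, E2F1 to E2F8, RB1 and RBL1, matched by symbol to 1 Ensembl identifier each among the 78932 genes of the count tables. The cells were HCT116, a human colorectal cancer line, in which NUDT21, a subunit of the cleavage factor CFIm, carries a dTAG degradation tag. CFIm binds UGUA motifs upstream of poly(A) sites in nascent RNA. JTE-607 was combined with DMSO in 4 of the 8 libraries and with dTAGV1 in the other 4. dTAGV1 is the small molecule that directs the tagged protein to degradation. JTE-607 inhibits CPSF73, the nuclease that cuts pre-mRNA at poly(A) sites, and every library carries it, so dTAGV1 alone was not measured. Doses, treatment times and the number of clones behind the tagged line are not given in the sources used here. The labels number 4 replicates in each group without saying whether they are separate cultures, so p-values measure the spread between these libraries, which may be technical.

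E2F proteins are transcription factors that bind DNA as dimers with a DP partner, and they set the expression of genes needed for entry into S phase and for DNA replication. The pocket proteins RB1, RBL1 (p107) and RBL2 (p130) bind E2Fs and silence their targets, and cyclin-dependent kinases lift this block by phosphorylating the pocket proteins. E2F1, E2F2 and E2F3 are usually grouped as activators, E2F4 and E2F5 as repressors that work with RBL1 and RBL2, E2F6 as a repressor that does not need pocket proteins, and E2F7 and E2F8 as atypical repressors that bind DNA without a DP partner. Several E2F and pocket protein genes are themselves E2F targets.

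Libraries held 8649238 to 9977205 reads, of which 3447842 to 4291256 were counted to genes on their own strand. Levels are given as counts in each 1000000 of the library (CPM), scaled by the TMM method, and each read stands for a transcript 3′ end, so no correction for length was made. Of 7 colon epithelial markers, 5 passed the filter on low counts, among them EPCAM with 273 ± 15.4 CPM with DMSO (SD, n = 4). VIL1, at 0 to 3 counts per library, and CLDN7, at 4 to 16, did not pass. Of 7 markers of other cell types, COL1A1 alone passed, and the 7 together summed to 11.5 to 23.0 CPM per library. DMSO replicate 1 and dTAGV1 replicate 4 lay farthest from the other libraries of their groups, and values without each of them are given where they change a call.

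Of the 10 genes, 9 passed the filter on low counts, and 8 of these differed between the groups, against 57.9% of all 12618 genes tested (edgeR, quasi-likelihood F test, with Benjamini-Hochberg adjusted p under 0.05 over all genes tested). With dTAGV1, 7 were lower and 1 higher, where 28.5% of all genes tested were lower and 29.4% higher. E2F1 fell most, by 3.95-fold, followed by E2F8, RBL1, E2F7 and E2F6. E2F4 and RB1 were lower by less and near the threshold, E2F3 was not called, and E2F5 was the only member that rose. In bulk RNA, fewer cells in a phase of the cell cycle and less RNA per cell cannot be told apart. The median log2 fold change of the 9 was -0.54, against 0.01 for all genes tested, and 5 of the 9 had groups that did not overlap, 4 lower and 1 higher, where 50.9% of all genes tested did not overlap, 25.1% downward and 25.8% upward.

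**Figure D1:**
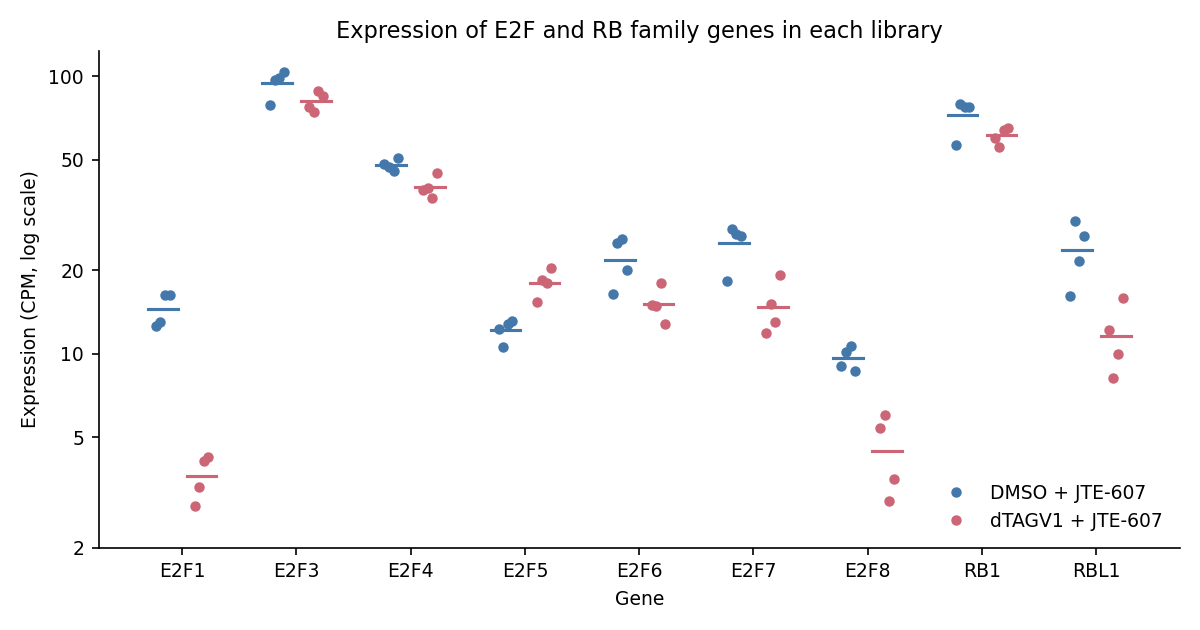
Expression of the 9 detected genes in CPM on a log axis, with 1 point for each library and a bar at the mean of each group of 4. The E2F1 points with dTAGV1 all lie below 5 CPM and apart from the DMSO points above 12 CPM, the E2F5 points lie higher with dTAGV1, and those of E2F3, E2F6, E2F7 and RB1 overlap between the groups.

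Promoter sequence was examined because E2F genes are known targets of E2Fs. RefSeq windows of 300 bases, from 250 before to 50 after a start site (GRCh38.p14), were given for 8 of the 10 genes. The 100 bases before the RB1 start site of this table begin at position 48476350 of chromosome 13, inside the gene and not at its annotated start, and are not read further. A second E2F3 window, farther downstream, held no match. E2F5 and E2F8 had no entry. Each window was searched on both strands for 8 forms of the E2F site, TTTCCCGC, TTTCCCGG, TTTCGCGC, TTTCGCGG, TTTGCCGC, TTTGCCGG, TTTGGCGC and TTTGGCGG. Of the 8 genes with a window, E2F1, E2F2, E2F3, E2F6 and RBL1 held at least 1 match. Among all 35116 windows, counted singly and not by gene, 6.19% did, and shares by gene follow below. The 100 bases before the start site are printed 5′ to 3′ for these genes other than E2F6, and for E2F4 and E2F7, which had no match, with matches in capitals.
E2F1: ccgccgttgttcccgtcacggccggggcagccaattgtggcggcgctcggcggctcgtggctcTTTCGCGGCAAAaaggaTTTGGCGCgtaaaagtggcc
RBL1: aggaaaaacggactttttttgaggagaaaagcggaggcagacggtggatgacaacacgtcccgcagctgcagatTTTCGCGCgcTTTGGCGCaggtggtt
E2F2: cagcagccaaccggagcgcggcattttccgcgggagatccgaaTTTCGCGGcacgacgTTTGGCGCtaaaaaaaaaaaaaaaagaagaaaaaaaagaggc
E2F3: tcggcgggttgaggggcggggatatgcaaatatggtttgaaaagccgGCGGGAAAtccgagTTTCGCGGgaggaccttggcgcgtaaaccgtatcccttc
E2F7: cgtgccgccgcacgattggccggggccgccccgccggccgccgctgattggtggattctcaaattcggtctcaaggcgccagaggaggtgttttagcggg
E2F4: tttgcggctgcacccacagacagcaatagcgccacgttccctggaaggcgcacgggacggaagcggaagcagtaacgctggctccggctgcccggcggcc
The stretches lie at chr20:33686386-33686485 (minus strand) for E2F1, chr20:37095998-37096097 (minus strand) for RBL1, chr1:23531234-23531333 (minus strand) for E2F2, chr6:20401779-20401878 (plus strand) for E2F3, chr12:77065570-77065669 (minus strand) for E2F7 and chr16:67192055-67192154 (plus strand) for E2F4.

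In E2F1 the run of capitals nearest the 5′ end holds 2 matches that overlap, TTTCGCGG and, on the other strand, TTTGCCGC, and TTTGGCGC follows. RBL1 carries TTTCGCGC and TTTGGCGC within 30 bases of its start site, and E2F2 carries TTTCGCGG and TTTGGCGC. E2F3 has TTTCGCGG and, on the other strand, TTTCCCGC. Its window also held the hexamer TTTGAA, the core of the cell cycle homology region (CHR) bound by the MuvB complex, which 15.2% of all windows held. Of the genes with matches, E2F1, E2F6 and RBL1 fell, E2F3 was not called and E2F2 was not detected. Over the tested genes with a window, 14.2% of those lower with dTAGV1 held an E2F form, 11.5% of those higher and 12.2% of those not called. A match is a description of these letters and not evidence of binding, and no match says only that these letters are absent from this window.

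**Figure D2:**
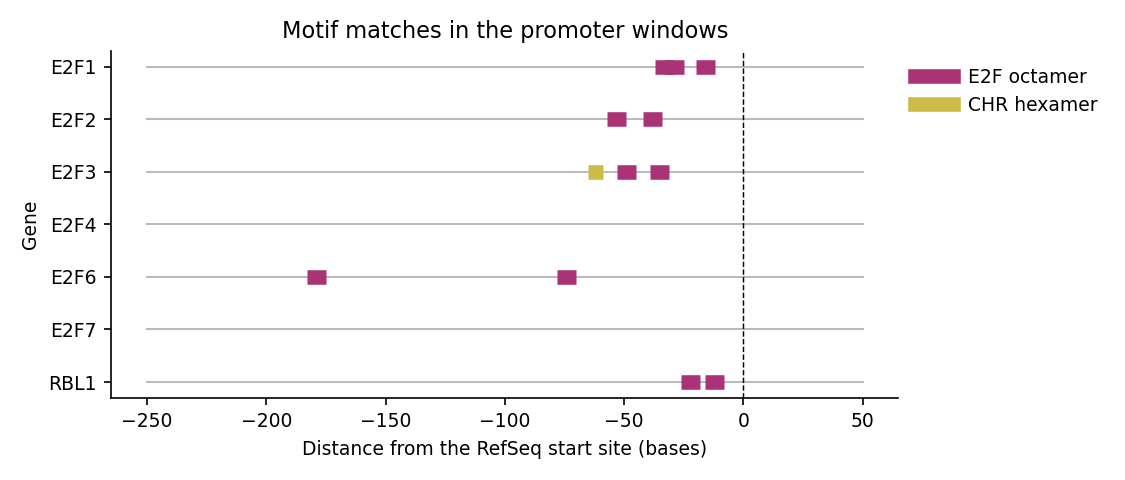
Positions of matches to the 8 E2F forms (purple) and to the CHR hexamer (yellow) in the 300-base windows of 7 genes, in bases from the RefSeq start site. The matches of E2F1, E2F2, E2F3 and RBL1 lie within the last 100 bases before the start site, E2F6 has 1 there and 1 farther upstream, and E2F4 and E2F7 have none.

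Among the activators, E2F1, which drives S phase genes and can also induce apoptosis, changed most (ENSG00000101412; GENCODE 29 on GRCh38, chromosome 20, 33675683 to 33686404, minus strand, protein-coding). DMSO replicates 1 to 4 gave 46, 54, 61 and 66 counts, and dTAGV1 replicates 1 to 4 gave 10, 11, 14 and 18. Every dTAGV1 library was below every DMSO library. Expression went from 14.5 ± 2.03 to 3.63 ± 0.674 CPM (mean ± SD, n = 4 each), and the log2 fold change came to -1.98 (SE 0.22, 95% interval -2.44 to -1.52; edgeR, Benjamini-Hochberg adjusted p = 4.45e-08). It ran from -2.09 to -1.89 over 16 alternative settings and was called in all of them. As few as 10 reads stand behind a dTAGV1 value, so the counting error of a single library is large.

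E2F3, the activator with the highest level, moved little (ENSG00000112242; chromosome 6, 20401906 to 20493715, plus strand, protein-coding). Counts were 288, 403, 369 and 417 with DMSO and 274, 246, 300 and 360 with dTAGV1. DMSO replicate 1 was as low as the dTAGV1 libraries and the groups overlapped. The levels were 94.4 ± 10.8 and 81.4 ± 6.50 CPM (SD, n = 4 each), which is a log2 fold change of -0.21 with a 95% interval of -0.41 to -0.02 (edgeR, Benjamini-Hochberg adjusted p = 0.0540). It passed the threshold in 9 of 17 alternatives, among them RLE scaling (adjusted p = 0.0459 by edgeR) and the fits without DMSO replicate 1 (-0.30, adjusted p = 0.00755 by edgeR), dTAGV1 replicate 3 (-0.27, adjusted p = 0.0340 by edgeR) and dTAGV1 replicate 4 (-0.25, adjusted p = 0.0338 by edgeR). The noncoding gene E2F3-IT1 lies inside E2F3 on the same strand, and reads that fit both are counted to neither.

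E2F2, the other activator, was listed at 0 in all 8 libraries (ENSG00000007968; chromosome 1, 23506430 to 23531220, minus strand, protein-coding). A count of 0 allows up to 3 counts, or 0.710 to 0.906 CPM per library. LIN37 and the mitotic gene NUSAP1 were likewise listed at 0 to 2 counts. Why these genes had almost no reads was not tested. No fold change is given for E2F2.

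The division between E2F1 and E2F3 was compared within each library, where scaling has no part, as the log2 ratio of their counts with 0.5 added to each. The ratio of E2F1 to E2F3 went from -2.69 ± 0.135 to -4.45 ± 0.183 (SD, n = 4 each), and the groups did not overlap. The difference of -1.76 had an exact 2-sided permutation p of 0.0286, the smallest that 4 against 4 can give, and 0.0381 after Benjamini-Hochberg adjustment over 4 such pairs. E2F1 thus fell further than E2F3 in these libraries. The 4 pairs, this one and those below, were chosen after the data were seen. Their p-values do not account for that choice and are no independent support.

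Of the canonical repressors, E2F4, which is abundant in many cell types, was slightly lower (ENSG00000205250; chromosome 16, 67192169 to 67198918, plus strand, protein-coding). Counts were 176, 195, 170 and 205 with DMSO and 137, 131, 124 and 189 with dTAGV1. In CPM all dTAGV1 libraries were below all DMSO libraries, with dTAGV1 replicate 4 the nearest. The levels of 47.8 ± 2.24 and 39.9 ± 3.45 CPM (SD, n = 4 each) gave a log2 fold change of -0.26 (SE 0.10; edgeR, Benjamini-Hochberg adjusted p = 0.0385). The call was lost in 8 of 17 alternatives, among them DESeq2 (adjusted p = 0.0654) and 6 fits that each left out 1 library (DMSO replicates 1, 2 and 4, dTAGV1 replicates 1, 2 and 3), with adjusted p-values of 0.0552 without DMSO replicate 1 and up to 0.0984 by edgeR. The direction held in all of them.

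E2F5, the other canonical repressor, was the only member that rose (ENSG00000133740; chromosome 8, 85177225 to 85217158, plus strand, protein-coding). Counts were 45, 44, 48 and 53 with DMSO and 54, 61, 61 and 86 with dTAGV1. In CPM the lowest dTAGV1 library, at 15.3, was above the highest DMSO library, at 13.1. The levels of 12.2 ± 1.11 and 18.0 ± 2.07 CPM (SD, n = 4 each) gave a log2 fold change of 0.57 (SE 0.16; edgeR, Benjamini-Hochberg adjusted p = 0.00425). It was called in all 16 alternatives in which it was tested. Against E2F4, the log2 ratio rose from -1.96 ± 0.132 to -1.15 ± 0.135 (SD, n = 4 each), a difference of 0.82 (exact permutation p = 0.0286, Benjamini-Hochberg adjusted p = 0.0381).

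E2F5 overlaps C8orf59 (RBIS) on the opposite strand, and strand therefore matters for its size. Counted irrespective of strand, reads in the overlap fit more than 1 gene, and E2F5 kept 10, 6, 9 and 9 counts with DMSO and 21, 15, 16 and 28 with dTAGV1. Its log2 fold change was then 1.29 (edgeR, Benjamini-Hochberg adjusted p = 0.000876), in the same direction. The opposite-strand counts over E2F5 were 283, 253, 237 and 250 with DMSO and 223, 248, 242 and 362 with dTAGV1. They gave a log2 fold change of 0.03 (SE 0.12; edgeR, Benjamini-Hochberg adjusted p = 0.835), where 48.4% of 3324 genes tested on that strand were called. The sense counts of RBIS itself had a log2 fold change of 0.12 (edgeR, Benjamini-Hochberg adjusted p = 0.312). No other member had more than 3 opposite-strand counts in a library.

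E2F6, a repressor that lacks the pocket-binding region, fell (ENSG00000169016; chromosome 2, 11444375 to 11466177, minus strand, protein-coding). Counts were 60, 104, 97 and 81 with DMSO and 53, 49, 61 and 54 with dTAGV1. The groups overlapped in CPM, since DMSO replicate 1 at 16.4 was below dTAGV1 replicate 3 at 18.0. The levels of 21.8 ± 4.46 and 15.1 ± 2.14 CPM (SD, n = 4 each) gave a log2 fold change of -0.54 (SE 0.17; edgeR, Benjamini-Hochberg adjusted p = 0.00784). Copies of E2F3, E2F4 and E2F6 elsewhere in the genome (7 processed pseudogenes) were all listed at 0, and reads that fit a gene and its copy equally are counted to neither.

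Both atypical repressors, which are known to turn E2F targets down late in S phase, fell. E2F7 (ENSG00000165891; chromosome 12, 77021247 to 77065580, minus strand, protein-coding) had counts of 67, 117, 101 and 107 with DMSO and 42, 50, 44 and 81 with dTAGV1. DMSO replicate 1 at 18.3 CPM was below dTAGV1 replicate 4 at 19.2 CPM, and the other 6 libraries kept the groups apart. It fell by 0.75 on the log2 scale (SE 0.17), from 25.0 ± 4.51 to 14.8 ± 3.21 CPM (SD, n = 4 each; edgeR, Benjamini-Hochberg adjusted p = 0.000528).

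E2F8 (ENSG00000129173; chromosome 11, 19224063 to 19241620, minus strand, protein-coding) had counts of 33, 42, 40 and 35 with DMSO and 19, 20, 10 and 15 with dTAGV1. The groups did not overlap. It went from 9.62 ± 0.942 to 4.48 ± 1.47 CPM (SD, n = 4 each), which is a log2 fold change of -1.11 (SE 0.25; edgeR, Benjamini-Hochberg adjusted p = 0.000405). The log2 ratio of E2F8 to E2F7 moved from -1.35 ± 0.252 to -1.73 ± 0.610 (SD, n = 4 each). This difference of -0.38 was within the spread between libraries (exact permutation p = 0.343, Benjamini-Hochberg adjusted p = 0.343), so the falls of E2F7 and E2F8 were not shown to differ.

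Of the pocket proteins, RB1, the retinoblastoma tumour suppressor, was lower by a small amount (ENSG00000139687; chromosome 13, 48303726 to 48599436, plus strand, protein-coding). Counts were 207, 328, 291 and 313 with DMSO and 212, 184, 218 and 274 with dTAGV1. DMSO replicate 1, at 56.6 CPM, lay within the dTAGV1 range of 55.6 to 64.8 CPM, while the other DMSO libraries held 77.4 to 79.1 CPM. The log2 fold change was -0.25 (SE 0.11; edgeR, Benjamini-Hochberg adjusted p = 0.0454). The call was lost in 7 of 17 alternatives, among them DESeq2 (adjusted p = 0.0647), limma-voom (adjusted p = 0.0660) and 5 fits that each left out 1 library, namely DMSO replicates 2, 3 and 4 and dTAGV1 replicates 1 and 2 (adjusted p up to 0.129 by edgeR). Without DMSO replicate 1 it was -0.35 (edgeR, Benjamini-Hochberg adjusted p = 0.00286).

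RBL1, which encodes p107 and pairs mainly with E2F4 and E2F5, fell by 2.02-fold (ENSG00000080839; chromosome 20, 36996349 to 37095995, minus strand, protein-coding). Counts were 59, 125, 81 and 107 with DMSO and 43, 27, 34 and 67 with dTAGV1. The groups were just apart in CPM, with DMSO replicate 1 at 16.1 and dTAGV1 replicate 4 at 15.8. Levels of 23.6 ± 6.08 and 11.6 ± 3.30 CPM (SD, n = 4 each) gave a log2 fold change of -1.01 (SE 0.20; edgeR, Benjamini-Hochberg adjusted p = 0.000203). The log2 ratio of RBL1 to RB1 went from -1.64 ± 0.215 to -2.43 ± 0.336 (SD, n = 4 each), without overlap. This difference was -0.79, for a pair chosen after the data were seen (exact permutation p = 0.0286, Benjamini-Hochberg adjusted p = 0.0381).

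The order of levels changed with these shifts. With DMSO, E2F3 led at 94.4 CPM, followed by RB1 at 72.7, E2F4 at 47.8, E2F7 at 25.0, RBL1 at 23.6, E2F6 at 21.8, E2F1 at 14.5, E2F5 at 12.2 and E2F8 at 9.62 CPM. The ranges over libraries overlapped between E2F3 and RB1, among E2F7, RBL1 and E2F6, and between neighbours from E2F1 to E2F8, so these neighbours are not ordered. With dTAGV1, E2F5 followed E2F4 at 18.0 CPM, overlapping E2F6, and E2F1 came last of the detected genes at 3.63 CPM, overlapping E2F8. E2F3, RB1 and E2F4 kept the highest levels in both groups, and with dTAGV1 their ranges did not overlap each other.

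As a share of all reads counted to E2F genes, E2F1 took 6.43%, 5.63%, 6.88% and 6.85% across DMSO replicates 1 to 4, and 1.70%, 1.94%, 2.28% and 2.24% across those of dTAGV1. Every dTAGV1 library was below every DMSO library. The share of E2F5 went from 5.45% ± 0.697 to 10.1% ± 0.746 and that of E2F8 from 4.29% ± 0.447 to 2.56% ± 0.951 (SD, n = 4 each). The E2F3 share went from 41.8% ± 1.23 to 45.9% ± 2.38. The E2F genes summed to 195 to 238 CPM with DMSO and 167 to 190 CPM with dTAGV1. These shares restate the levels above and were not tested.

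**Figure D3:**
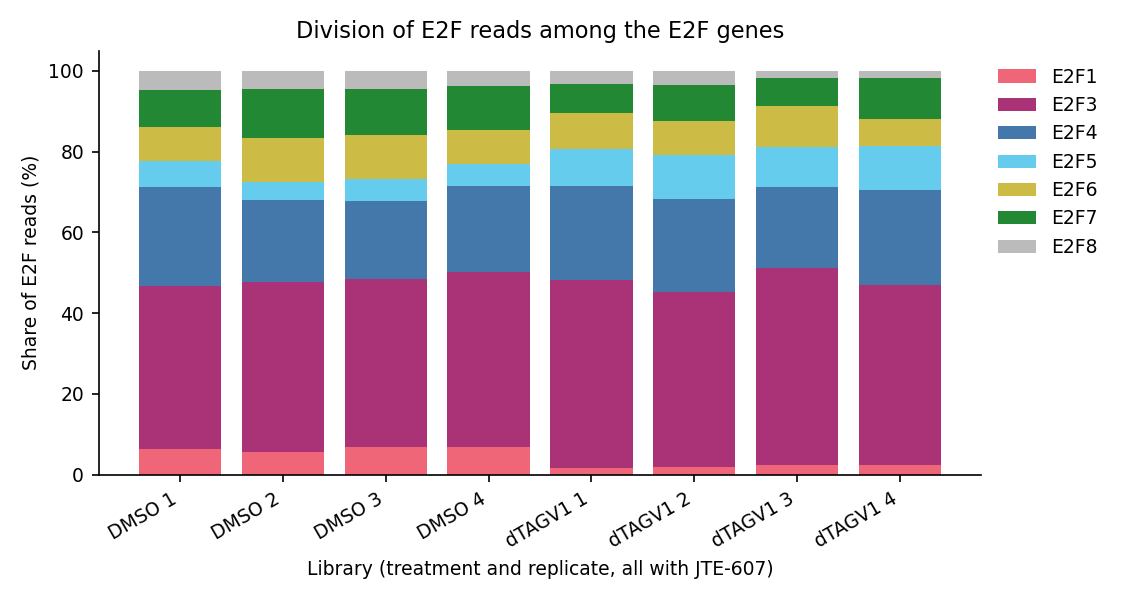
Share of the reads counted to E2F genes (percent, stacked from 0) that each of the 7 detected E2F genes took in each of the 8 libraries. The E2F1 band at the bottom is narrower in all 4 dTAGV1 libraries, the E2F5 band is wider, and E2F3 and E2F4 hold most reads in every library.

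CFIm acts at 3′ ends, and the 3′ ends of the members were therefore described. In the last 100 bases of the coding transcript that ends farthest downstream in GENCODE 29, UGUA occurred 0 times in E2F1, 1 time each in E2F7, E2F8 and RBL1, 2 times each in E2F2, E2F3, E2F4, E2F6 and RB1, and 3 times in E2F5. E2F1, which fell most, thus had none there and E2F5, which rose, had the most, but E2F4, E2F6 and RB1 were lower with 2 each. Over 10641 tested genes with such a transcript the median was 1, and means were 0.841 for genes lower, 0.919 for genes higher and 0.796 for genes not called. Of these genes 21.4% had 2 or more, where 6 of the 10 members did, counting E2F2, which was not among the tested genes. The poly(A) signal AAUAAA was not found near the end used for E2F2, E2F6 and E2F8. The counts do not tell which poly(A) site was used, and a relation across 10 genes was not tested.

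Partners of the E2Fs moved in different directions. TFDP1, which encodes the main DP partner, fell from 112 ± 11.9 to 63.5 ± 10.5 CPM (SD, n = 4 each), which is a log2 fold change of -0.82 (edgeR, Benjamini-Hochberg adjusted p = 5.13e-07). TFDP2, a second DP gene, rose with a log2 fold change of 0.26 (edgeR, Benjamini-Hochberg adjusted p = 0.00551). RBL2, the pocket protein p130, had a log2 fold change of -0.32 and was not called (edgeR, Benjamini-Hochberg adjusted p = 0.0620), although its groups did not overlap. It passed under library-size scaling alone (-0.40, adjusted p = 0.0244 by edgeR). Counted irrespective of strand its log2 fold change was -0.13 (edgeR, Benjamini-Hochberg adjusted p = 0.620). TFDP3 had at most 1 count in a library.

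The MuvB core joins RBL1 or RBL2 with E2F4 or E2F5 in the DREAM repressor, and joins MYBL2 and FOXM1 when genes of mitosis are switched on. Of 6 tested genes, 4 were lower and 1 higher, beside 28.5% lower and 29.4% higher over all genes tested. MYBL2, itself a classical E2F target, fell from 99.5 ± 27.3 to 24.1 ± 1.94 CPM (SD, n = 4 each), which is a log2 fold change of -2.05 (edgeR, Benjamini-Hochberg adjusted p = 1.80e-06). Log2 fold changes of the others that fell were -1.17 for LIN52, -0.88 for FOXM1 and -0.81 for RBBP4. LIN54, the subunit that contacts the CHR element, rose with a log2 fold change of 0.84 (edgeR, Benjamini-Hochberg adjusted p = 1.42e-05). LIN9 had -0.25 and was not called (edgeR, Benjamini-Hochberg adjusted p = 0.392).

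**Figure D4:**
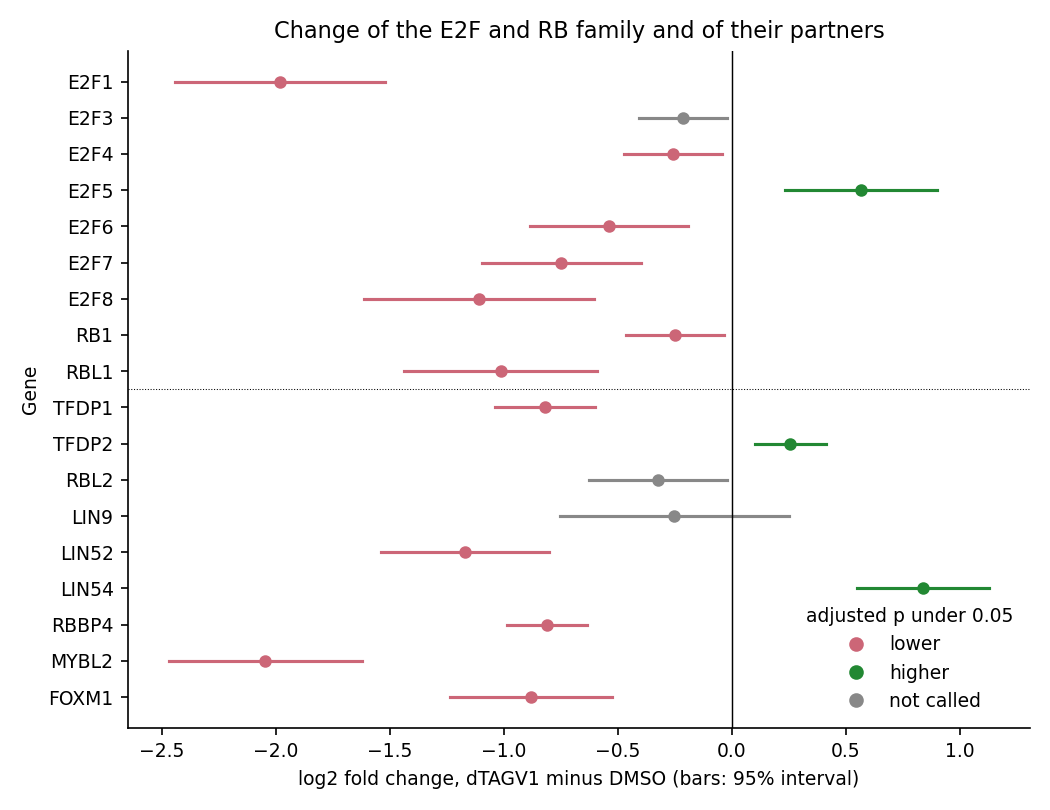
Log2 fold changes (dTAGV1 minus DMSO) with 95% intervals for the 9 tested family members (above the dotted line) and for their DP, pocket and MuvB partners. E2F1 and MYBL2 lie near -2, E2F5, TFDP2 and LIN54 lie above 0, and E2F3, RBL2 and LIN9 are not called.

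Genes that E2Fs are known to activate for S phase were lower almost throughout. The lists were chosen with earlier results of these data known, so their counts are descriptions. A link between the family and these genes was not tested. Of 36 G1/S targets, 34 were lower, CHAF1B was higher and PCNA was not called, beside 28.5% lower over all genes tested, and the median log2 fold change was -1.21. Of the targets averaging 10 CPM or more, those that fell most were BRCA1 at -2.40, LIG1 at -1.72 and CLSPN at -1.68. CHAF1B, a chromatin assembly factor subunit, had 1.75. CHAF1B overlaps MORC3 on the same strand, and BRCA1, FEN1 and CHEK1, which fell, also overlap other genes on their strand. Whether reads of such neighbours entered these counts was not tested. Of 20 tested G2/M genes bound by DREAM and MuvB, 20 were lower, against the same 28.5%, with a median of -1.29, led by CDC20 at -2.01, AURKB at -1.86 and CCNB1 at -1.61. Summed levels of the listed G2/M genes were 3210 to 5715 CPM with DMSO and 1538 to 2093 CPM with dTAGV1. The part of a cell cycle shift in the levels of E2F1, E2F7, E2F8 and RBL1, which vary over the cell cycle, was not tested.

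Upstream of RB, CCNE1 (cyclin E1) and CDK2, whose products phosphorylate pocket proteins, fell, and 4 genes of kinase inhibitors rose. CDKN2C (p18), an inhibitor gene named after its value was seen, fell, with a log2 fold change of -0.78. Of 14 tested genes, 8 were lower and 4 higher, where 28.5% of all genes tested were lower and 29.4% higher, so the count of rises is near the background. The median log2 fold change was -0.52. CDK2 went from 196 ± 31.5 to 49.0 ± 3.41 CPM and CCNE1 from 35.9 ± 6.88 to 8.74 ± 3.74 CPM (SD, n = 4 each). The phosphatase gene CDC25A had a log2 fold change of -1.58, and CCNE1 and CDC25A are E2F targets as well. CDKN2B (p15) had 1.97, CDKN1A (p21) 1.03 and CDKN1B (p27) 0.79. CDKN2B went from 37.8 ± 2.88 to 148 ± 9.59 CPM (SD, n = 4 each; edgeR, Benjamini-Hochberg adjusted p = 7.31e-15).

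E2F6 works with a chromatin complex that silences genes. Of 11 tested genes, 3 were higher and 2 lower, with a median log2 fold change of -0.06. Over all genes tested 29.4% were higher and 28.5% lower, so neither count stands above the background. HDAC1 had 0.39 and RNF2 0.33, and WDR5 had -0.37 and CBX3 -0.30. RYBP, named after its value was seen, had 0.86. The RNF2 call was lost in 6 of 17 alternatives, 4 of which left out DMSO replicate 2 or 3 or dTAGV1 replicate 2 or 4, with the highest adjusted p in the fit without dTAGV1 replicate 4 (0.27, adjusted p = 0.0786 by edgeR).

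Apoptosis genes that E2F1 can induce moved in both directions. Of 7 genes, 4 were higher and 1 lower, beside 29.4% higher and 28.5% lower over all genes tested, and the median log2 fold change was 0.60. APAF1 had 0.82, BBC3 (PUMA) 0.78 and PMAIP1 (NOXA) 0.76, and BBC3 and PMAIP1 are also targets of p53. TP73, named after its value was seen, was the 1 that fell, from counts of 52 to 72 with DMSO to 7 to 18 with dTAGV1, which is a log2 fold change of -2.32 (edgeR, Benjamini-Hochberg adjusted p = 3.88e-09).

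**Figure D5:**
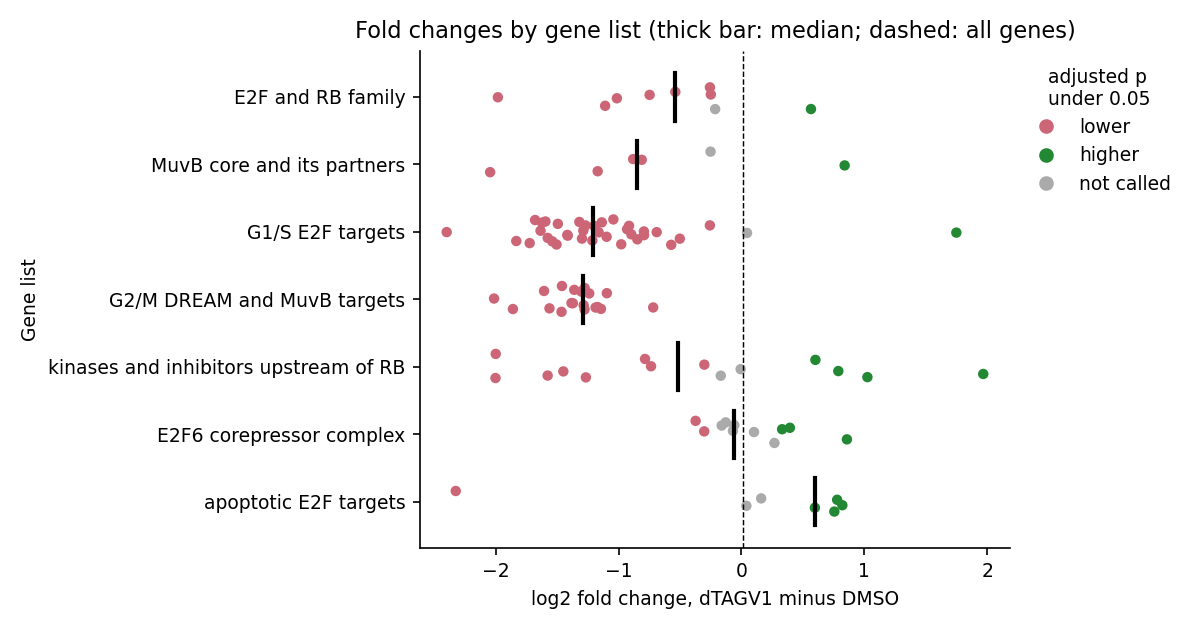
Log2 fold changes (dTAGV1 minus DMSO) of tested genes in the E2F and RB family and in 6 lists, with 1 point for each gene, a thick bar at each list's median and a dashed line at the median of all genes tested. The G1/S and G2/M targets lie almost wholly below 0. In the list of 7 apoptosis genes, 4 were called higher and TP73 lies lowest.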

How the data were processed

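Poly(A) RNA of 8 HCT116 libraries was sequenced from transcript 3′ ends with a forward-stranded QuantSeq kit, per the labels' protocols. The authors deposited whole-number read counts for each gene, in the layout STAR writes. FastQC, fastp, STAR, HTSeq, DESeq2 and GRCh38 are named in the submitters' processing notes, and versions, annotation and use of molecular identifiers are not given in the sources used here. Counts on the strand of the gene were used, which exceeded the opposite-strand counts by 8.28 to 8.48 times. The 4 totals of reads given to no gene, 56.7% to 62.8% of each library, stayed out of library sizes and tests. Reads in introns are among them, so a level covers annotated exons only.

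Members and gene lists were chosen with earlier results of these data known, and lists are described by counts and medians with no set test. Genes were filtered with filterByExpr (minimum count 10), scaled with TMM and tested with edgeR 4.0.16 in R 4.3.3 (glmQLFit, robust mode), with Benjamini-Hochberg adjustment over 12618 genes and a threshold of 0.05. A log2 fold change above 0 means a higher level with dTAGV1. A standard error is the absolute log2 fold change divided by the square root of F. Named were all members, the tested DP, pocket and MuvB partners, and of each other list the 3 largest called rises and falls with a mean of at least 10 CPM. Ratios of members were tested with exact permutation tests (scipy 1.17.1), chosen after seeing the data. Symbols were looked up by gene identifier, and coordinates and overlaps from GENCODE 29. The annotation used for counting is not given and can hold overlaps that GENCODE 29 lacks. E2F7, without an overlap in GENCODE 29, had 50 sense counts in dTAGV1 replicate 2 and 44 irrespective of strand. Alternatives were DESeq2 1.42.0, limma-voom (limma 3.58.1), RLE and library-size scaling, no filter, a mean of at least 100 counts, the replicate number as a block, counts irrespective of strand, dispersions without the robust mode and leaving out each library. In simulated counts with 195 of 12431 genes changed, the gene test called 78.5% of the changed genes and made 10 false calls. Far fewer genes were changed there than were called in these libraries, so the simulation does not test scaling under such wide change. Within groups, every pair of libraries differed by more than sampling noise (chi-square over degrees of freedom 1.82 to 5.09), and all 8 were kept.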

Additional observations from a re-analysis of the deposited data

Results flagged for a closer look

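RB1 in DMSO replicate 1, at 56.6 CPM, lay far below the other 3 DMSO libraries at 77.4 to 79.1 CPM. The gap to the nearest library was 0.92 of the group's range, above Dixon's 95% critical value for 4 samples. WDR5 in dTAGV1 replicate 1, at 60.9 CPM, lay below the other 3 at 75.7 to 77.3 CPM. CDK2 in dTAGV1 replicate 3, at 43.9 CPM, lay below the other 3 at 50.1 to 51.3 CPM. These are 3 flags among 78 groups of libraries examined (39 genes in both treatments). Chance flags about 1 in 20 independent groups, but these genes share libraries and are not independent. DMSO replicate 1 was also the lowest DMSO library in CPM for E2F1, E2F3, E2F6, E2F7 and RBL1, but not for E2F4, E2F5 and E2F8. Why the flagged values lay apart was not tested.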

How the results depend on the processing

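Over 17 alternatives, E2F1, E2F5, E2F6, E2F7, E2F8 and RBL1 kept their direction and call wherever they were tested, and E2F3, E2F4 and RB1 kept their direction but not their side of the threshold. Among genes averaging 100 counts or more, 4120 genes were called, and 3 members, the only 3 tested, were called, 3 lower and 0 higher. Fits without single libraries gave 6861 to 7232 called genes and 6 to 9 called members, of which 5 to 8 were lower and 1 higher. The log2 ratio differences ran from -1.82 to -1.67 for E2F1 to E2F3, from 0.759 to 0.880 for E2F5 to E2F4, from -0.923 to -0.682 for RBL1 to RB1 and from -0.576 to -0.152 for E2F8 to E2F7 in these fits. With 3 libraries against 4 the smallest exact permutation p is 0.0571, so no ratio can pass there. The opposite-strand change over E2F5, not past the threshold, was -0.00993 without a filter and ran from -0.0580 to 0.131 without single libraries. Counts irrespective of strand moved the E2F5 to E2F4 difference to 1.54.

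The replicate numbers were not shown to pair the libraries: deviations of same-numbered libraries from their group means correlated at 0.135, -0.0221, 0.0253 and 0.0362. Such low correlations do not exclude shared cultures. With the replicate number as a block, 7434 genes and 9 members were called, E2F3 being added (-0.21, edgeR adjusted p = 0.0383). Scaling by library size shifted the median of all genes to -0.06 and lowered the share of calls that were higher from 50.8% to 43.8%. Fewer than 20 reads stand behind each dTAGV1 value of E2F1, which limits the precision of its fold change.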
